A study of Mus musculus with 4 samples.

Results

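Sgk1, Per1, Ddit4, Errfi1, Irs2 and Plat are 6 genes grouped here as responsive to glucocorticoid hormones, a response that was not measured in these libraries. They were chosen by name, with their values in these libraries already known, from 230 genes that the study listed for tau-/- brain. The study had selected the 230 on the libraries described here, by a response of at least 1.5-fold to pentylenetetrazole (PTZ) in tau+/+ mice and by a missing or milder response in tau-/- mice. The values fit that description when tau-/- PTZ is divided by tau+/+ vehicle, where 0 of the 230 had a larger response in the same direction than in tau+/+, whereas 6 of the 230, all outside the genes described here, had one when it is divided by tau-/- vehicle. That the 6 genes changed past 1.5-fold after PTZ in tau+/+ came with the list, in which 175 genes were higher and 55 lower. The 6 are among the 175, and all 175 were lower in tau-/- PTZ than in tau+/+ PTZ. Neither direction is therefore read as a result. Every value below is a description with no test.

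RNA was sequenced from tau+/+ and tau-/- mice of 6 weeks of age on a C57Bl/6 background, with 1 library for each of 4 conditions: tau+/+ vehicle (called sham in the labels), tau+/+ PTZ, tau-/- vehicle and tau-/- PTZ. PTZ, a blocker of GABA-A receptors that provokes seizures, was injected intraperitoneally at 50 mg/kg, and RNA was taken 1 h later. tau-/- mice carry a GFP cDNA in the first exon of Mapt, the gene for the microtubule-associated protein tau, a germline change present in all cells. The PTZ-injected mice behind the libraries had been picked to resemble each other in seizure score. How many mice each library holds is not stated in the sources used here. The labels name brain as the source but also describe primary neurons. The paper describes RNA from injected mice, so the libraries are treated here as brain.

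Values are FPKM, sequenced fragments scaled by transcript length and by library size, so levels can be compared between genes. The study states a least number of aligned read pairs for its samples but no total for each library, and totals cannot be read from FPKM, so no counting error is attached to the values, and no replicate spread stands behind them. Of the study's table only the 230 listed genes are analysed here. Mapt is not one of them, so genotype rests on the labels. Defining markers of neurons, astrocytes, oligodendrocytes, microglia, endothelium and red blood cells were looked for, and 0 of each list were among the listed genes, so the labelled tissue could not be checked with them. Over the 230 genes the median level was 3.35 FPKM (vehicle) and 5.44 FPKM (PTZ) in tau+/+ and 3.33 FPKM (vehicle) and 2.81 FPKM (PTZ) in tau-/-. The tau-/- PTZ library stood apart in its choroid plexus genes: 17 of 25 marker genes were listed, and their summed level was 1600 FPKM (vehicle) and 2662 FPKM (PTZ) in tau+/+ and 1175 FPKM (vehicle) and 42.0 FPKM (PTZ) in tau-/-. All 17 were lowest in tau-/- PTZ, where Ttr, the carrier of thyroid hormone made by the choroid plexus, was at 33.1 FPKM and Defb11 was listed at 0. Of 10 genes of the meninges 6 were listed, with a summed level of 22.6 FPKM (vehicle) and 36.1 FPKM (PTZ) in tau+/+ and 23.8 FPKM (vehicle) and 16.3 FPKM (PTZ) in tau-/-. In bulk RNA, fewer cells of a type and less RNA per cell cannot be told apart. The part of choroid plexus and meninges content in the values of the 6 genes was not tested.

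Glucocorticoids such as corticosterone, released by the adrenal gland in stress, enter cells and bind the glucocorticoid receptor. The bound receptor moves to the nucleus and, as a dimer, binds glucocorticoid response elements, which are inverted repeats with 2 short arms separated by 3 bases. In brain the hormone acts on neurons, glia and vessels, and several of its target genes are also induced by cAMP and calcium signalling through CREB, which binds the cAMP response element. The 6 genes act at different points: Sgk1 is a kinase, Per1 a transcriptional repressor of the circadian clock, Ddit4 an inhibitor of mTORC1, Irs2 and Errfi1 an adaptor and an inhibitor of growth factor receptors, and Plat a secreted protease.

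The RefSeq promoters of the 6 genes were searched for elements through which glucocorticoid-responsive genes are known to be regulated. The order of conditions that most of the 6 share is favoured by the selection, so it is not read as a sign of common regulation. RefSeq gave 12 start sites for 5 of the genes on GRCm38.p6 (6 for Sgk1, 2 for Per1, 1 for Ddit4, 2 for Errfi1 and 1 for Irs2). No GENCODE transcript starts close to Sgk1 start 3, Errfi1 start 1 or Irs2 start 1. The Irs2 start site, chr8:11008929, lies upstream of the GENCODE gene, which begins on the minus strand at chr8:11008458. Each window ran from 250 bases before a start site to 50 bases from it on. The 250 bases before the start are shown 5′ to 3′ for the 5 windows that hold the palindromic element, a cAMP response element or its core, or an E-box, with every motif match in capitals. They are Sgk1 start 5 (chr10:21993640-21993889, plus strand), Per1 start 1 (chr11:69098699-69098948, plus strand), Per1 start 2 (chr11:69099902-69100151, plus strand), Errfi1 start 2 (chr4:150854820-150855069, plus strand) and Irs2 start 1 (chr8:11008930-11009179, minus strand).
Sgk1 start 5: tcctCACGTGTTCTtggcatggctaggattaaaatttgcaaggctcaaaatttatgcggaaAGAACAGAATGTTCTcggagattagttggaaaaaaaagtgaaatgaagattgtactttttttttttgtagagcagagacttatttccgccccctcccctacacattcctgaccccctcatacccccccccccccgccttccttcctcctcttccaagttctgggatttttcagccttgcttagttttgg
Per1 start 1: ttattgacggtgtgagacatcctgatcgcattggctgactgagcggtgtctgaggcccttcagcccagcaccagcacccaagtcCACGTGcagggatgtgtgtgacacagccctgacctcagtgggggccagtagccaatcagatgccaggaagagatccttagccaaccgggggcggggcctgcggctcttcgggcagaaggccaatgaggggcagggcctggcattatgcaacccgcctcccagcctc
Per1 start 2: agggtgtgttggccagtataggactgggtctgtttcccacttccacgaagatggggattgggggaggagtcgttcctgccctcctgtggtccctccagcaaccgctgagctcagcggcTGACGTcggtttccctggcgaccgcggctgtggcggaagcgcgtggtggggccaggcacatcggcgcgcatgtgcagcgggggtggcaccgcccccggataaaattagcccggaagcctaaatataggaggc
Errfi1 start 2: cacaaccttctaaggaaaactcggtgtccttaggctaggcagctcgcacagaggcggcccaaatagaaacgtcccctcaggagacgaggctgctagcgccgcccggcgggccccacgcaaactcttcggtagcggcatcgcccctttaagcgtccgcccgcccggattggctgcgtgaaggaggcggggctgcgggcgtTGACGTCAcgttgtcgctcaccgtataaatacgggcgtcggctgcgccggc
Irs2 start 1: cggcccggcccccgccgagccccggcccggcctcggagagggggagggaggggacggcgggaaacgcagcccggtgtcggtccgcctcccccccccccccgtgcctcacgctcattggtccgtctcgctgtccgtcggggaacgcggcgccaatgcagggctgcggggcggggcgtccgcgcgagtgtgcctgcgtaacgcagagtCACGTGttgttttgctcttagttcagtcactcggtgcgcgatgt

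Sgk1 start 5 had the palindromic glucocorticoid response element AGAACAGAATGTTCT at positions -189 to -175, counted from the first transcribed base as 0. The pattern searched was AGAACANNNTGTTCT on both strands, which 3 of 32851 RefSeq windows of the same length held (0.00913%). Of those 3 windows, 1 belonged to Sgk1 and the other two to genes that are not among the 230. The same Sgk1 window held a further single arm of the palindrome (TGTTCT) at -242 to -237, overlapping an E-box (CACGTG) at -246 to -241. Such an arm was in 3 of the 12 windows, all of Sgk1, against 19.0% of all windows, and both arms of the palindrome count among its matches. Errfi1 start 2 had a full cAMP response element (TGACGTCA, in 1.79% of all windows) at -51 to -44. Per1 start 2 had the core of that element (TGACGT, in 7.51% of all windows) at -132 to -127; the core lies within the full element, so the Errfi1 window holds it too. The E-box, the element bound by clock and other basic helix-loop-helix factors and held by 7.15% of all windows, was present in Sgk1 start 5, in Per1 start 1 and in Irs2 start 1. The AP-1 site (TGANTCA, in 7.81% of all windows) was in 0 of the 12. The Ddit4 window held none of these motifs, and these letters are all that was searched. Deposited values are per gene and do not separate start sites, so no level can be assigned to any of these windows, and the motifs were chosen with the genes already known.

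**Figure D1:**
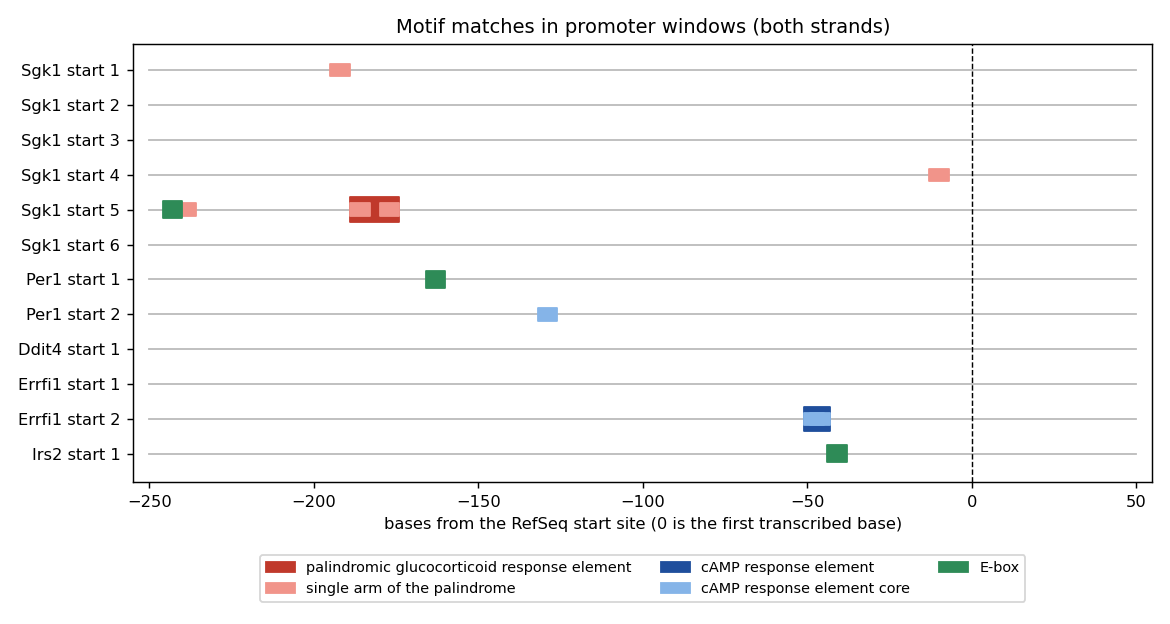
Positions of motif matches in the 12 promoter windows of 5 genes, with 1 row per RefSeq start site and the distance in bases from that start on the horizontal axis. The palindromic element stands in 1 window, of Sgk1, and the full cAMP response element in 1 window, of Errfi1.

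Sgk1, serum- and glucocorticoid-regulated kinase 1, is related to Akt and controls ion channels and transporters. It lies at chr10:21882184-21999903 on the plus strand (GRCm38, ENSMUSG00000019970.15, 13 annotated transcripts). The tau+/+ libraries had 19.4 FPKM with vehicle and 59.3 FPKM with PTZ, and the tau-/- libraries had 47.3 FPKM with vehicle and 37.1 FPKM with PTZ. Both tau-/- libraries thus stood between the tau+/+ libraries, and the vehicle library was the higher of the pair. PTZ over vehicle was 3.06-fold in tau+/+ and 0.784-fold in tau-/-, log2 ratios of 1.61 and -0.35. Without PTZ, tau-/- was 2.44-fold above tau+/+ (log2 1.29). Sgk1 had rank 3 from the top of the 230 genes in that ratio, and rank 50 in its tau+/+ response.

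Per1 encodes period 1, which represses transcription by CLOCK and BMAL1 and is also induced quickly by light and by glucocorticoids. It lies at chr11:69095217-69109960 on the plus strand (ENSMUSG00000020893.17, 6 transcripts). In tau+/+ its level was 11.1 FPKM with vehicle and 32.0 FPKM with PTZ, and in tau-/- it was 19.1 FPKM with vehicle and 18.9 FPKM with PTZ. The tau-/- libraries were nearly level with each other and lay between those of tau+/+. PTZ over vehicle was 2.88-fold in tau+/+ (log2 1.53) and 0.995-fold in tau-/- (log2 -0.0076), and tau-/- vehicle was 1.72-fold above tau+/+ vehicle (log2 0.78).

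Ddit4, also called REDD1, restrains the growth-promoting kinase complex mTORC1 and is induced by stress, hypoxia and glucocorticoids. It lies at chr10:59949669-59951834 on the minus strand (ENSMUSG00000020108.4, 1 transcript). The tau+/+ libraries had 16.6 FPKM with vehicle and 29.1 FPKM with PTZ, and the tau-/- libraries had 25.8 FPKM with vehicle and 22.4 FPKM with PTZ. The conditions followed the same order as for Sgk1. PTZ over vehicle was 1.75-fold in tau+/+ (log2 0.81) and 0.867-fold in tau-/- (log2 -0.21). The ratio of the vehicle libraries, 1.55-fold higher in tau-/- (log2 0.64), was closer to the tau+/+ response than in any other of the 6 genes.

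Irs2, insulin receptor substrate 2, carries signals from the insulin and IGF-1 receptors to PI3K. It lies at chr8:10984681-11008458 on the minus strand (ENSMUSG00000038894.7, 1 transcript). In tau+/+ its level was 10.8 FPKM with vehicle and 24.8 FPKM with PTZ, and in tau-/- it was 14.4 FPKM with vehicle and 17.0 FPKM with PTZ. Unlike in the other 5 genes, tau-/- PTZ was above tau-/- vehicle, by 1.18-fold (log2 0.24), while the tau+/+ ratio was 2.28-fold (log2 1.19). Without PTZ, tau-/- was 1.33-fold above tau+/+ (log2 0.41). A processed transcript on the opposite strand, 9530052E02Rik, overlaps 609 bases of the gene, and whether fragments were assigned by strand is not given in the sources used here, so the Irs2 values are uncertain to that extent.

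Errfi1, also called MIG-6, binds the EGF receptor family and inhibits it as a feedback regulator. It lies at chr4:150853919-150868892 on the plus strand (ENSMUSG00000028967.10, 3 transcripts). The tau+/+ libraries had 11.8 FPKM with vehicle and 60.4 FPKM with PTZ, and the tau-/- libraries had 21.3 FPKM with vehicle and 20.0 FPKM with PTZ. The tau+/+ PTZ library stood far above the other 3, which lay within 11.8 to 21.3 FPKM. PTZ over vehicle was 5.10-fold in tau+/+ (log2 2.35), the highest of the 6 genes, and 0.938-fold in tau-/- (log2 -0.09). Without PTZ, tau-/- was 1.80-fold above tau+/+ (log2 0.85). The antisense gene 1700045H11Rik overlaps 1031 bases of Errfi1, and reads of the pair cannot be told apart if strand was not used.

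Plat encodes tissue plasminogen activator, a secreted protease that turns plasminogen into plasmin and that acts at synapses as well as in clot lysis. It lies at chr8:22757727-22782844 on the plus strand (ENSMUSG00000031538.6, 3 transcripts). In tau+/+ its level was 12.2 FPKM with vehicle and 19.2 FPKM with PTZ, and in tau-/- it was 15.2 FPKM with vehicle and 14.0 FPKM with PTZ. The order of conditions was that of Sgk1 within a narrower range. PTZ over vehicle was 1.58-fold in tau+/+ (log2 0.66), the member closest to the study's 1.5-fold threshold, and 0.917-fold in tau-/- (log2 -0.13). Without PTZ, tau-/- was 1.25-fold above tau+/+ (log2 0.32).

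**Figure D2:**
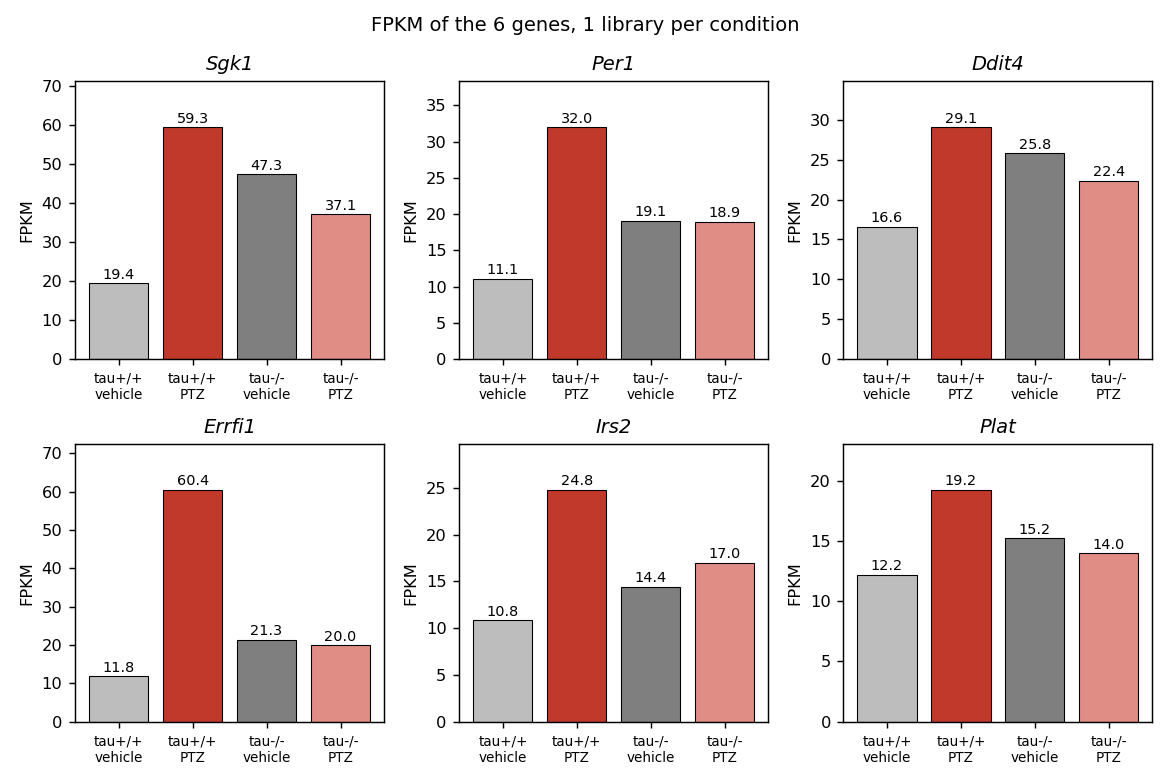
FPKM of Sgk1, Per1, Ddit4, Errfi1, Irs2 and Plat in the 4 libraries, each bar being 1 library, with a separate vertical axis from 0 for each gene. In each gene tau+/+ vehicle is the lowest bar and tau+/+ PTZ the highest, with both tau-/- libraries between them.

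All 6 genes were well expressed for this list. Their means over the 4 libraries ran from 15.1 FPKM for Plat to 40.8 FPKM for Sgk1, which placed them at ranks 12 (Sgk1) to 51 (Plat) of the 230. In the tau+/+ vehicle library Sgk1 was highest, followed by Ddit4, Plat, Errfi1, Per1 and Irs2, and the last 4 lay within 10.8 to 12.2 FPKM. With 1 library per condition no spread was available to say which neighbours in that order differ.

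The first comparison asks which genes PTZ changed in tau+/+ brain. All 6 genes were past 1.5-fold higher, with a median log2 ratio of 1.36; 76.1% of the 230 genes were as well, and since this contrast chose the genes nothing is read from either number. Taken relative to the median log2 ratio of the listed genes, 0.80, the ratios of the 6 remained above 0 except for Plat (-0.14) and, with choroid plexus and meninges genes left out of that median, Ddit4 (-0.0021). The same comparison within tau-/- asks what PTZ changed without tau. The 6 genes stayed within 1.5-fold there, with a median log2 ratio of -0.11. Of the 230 genes, 8.7% were past 1.5-fold higher and 16.5% past 1.5-fold lower in that comparison, and the latter share was 9.18% without choroid plexus and meninges genes and 9.8% among genes with a mean of at least 5 FPKM, so staying within the threshold was usual for the list. Of the 6 log2 ratios, 5 were below 0, from -0.35 for Sgk1 to -0.0076 for Per1, and Irs2 was above 0, while 97 of the 175 listed genes higher after PTZ in tau+/+ and 135 of the 230 were below 0. Relative to the median of the listed genes Per1 (0.09) and Errfi1 (0.0021) were above 0 as well, and Sgk1, Ddit4 and Plat stayed below it. The tau-/- log2 response minus the tau+/+ log2 response ran from -2.44 for Errfi1 to -0.78 for Plat, with a median of -1.27, close to the median of -1.24 over the 175 listed genes that were higher after PTZ in tau+/+.

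The vehicle libraries of both genotypes ask whether levels differed before any PTZ was given. Sgk1, Errfi1, Per1 and Ddit4 were past 1.5-fold higher in the tau-/- than in the tau+/+ vehicle library, 4 of the 6 genes, where 13.9% of the 230 genes were. The share was 15.7% among genes with a mean of at least 5 FPKM. Of the 175 genes higher after PTZ in tau+/+, 32 were past this threshold. Irs2 and Plat were higher too, by 1.33-fold and 1.25-fold, within the threshold, and 121 of the 175 genes higher after PTZ in tau+/+ were above 0 in this ratio. The median log2 ratio was 0.71 over the 6 genes, 0.11 over all 230 and 0.23 over the 175 genes higher after PTZ in tau+/+. Counted from the top of the 230, this ratio had rank 3 for Sgk1, 13 for Errfi1, 15 for Per1, 29 for Ddit4, 56 for Irs2 and 74 for Plat. The tau+/+ vehicle library is the divisor both here and in the tau+/+ response that chose the genes, and a low value in that 1 library raises both ratios. Taken relative to the median of the listed genes, Ddit4 came to 0.53 and 3 genes were past 1.5-fold, with all 6 above 0. At a threshold of 2-fold, 1 of the 6 genes, Sgk1, was past it, as were 10 of the 230 (4.35%).

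**Figure D3:**
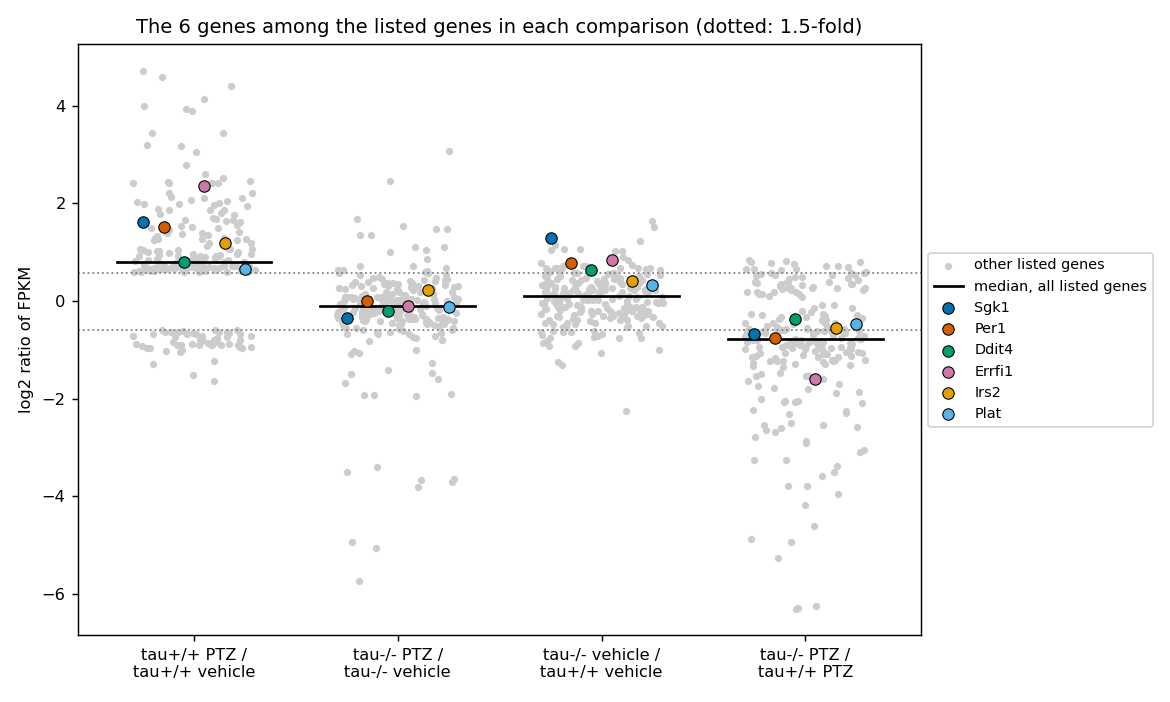
Log2 ratios of FPKM in 4 comparisons, with the listed genes outside the 6 as grey points, the 6 genes as coloured points, the median over the listed genes as a black bar and 1.5-fold as dotted lines. Defb11, listed at 0 in tau-/- PTZ, has no point in the ratios with that library. The 6 genes lie above the black bar in the comparison of vehicle libraries and around it in the tau-/- response.

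After PTZ, all 6 genes were lower in tau-/- than in tau+/+, as were all 175 listed genes that were higher after PTZ in tau+/+, so nothing is read from that direction. Errfi1 (0.330-fold, log2 -1.60), Per1 (0.593-fold, log2 -0.75) and Sgk1 (0.625-fold, log2 -0.68) were past 1.5-fold lower, 3 of the 6 genes, where 60.4% of the 230 were, and 77.5% of the genes with a mean of at least 5 FPKM. Irs2 at 0.686-fold, Plat at 0.726-fold and Ddit4 at 0.770-fold stayed within the threshold. At a threshold of 2-fold, 1 of the 6, Errfi1, was past it, where 37.0% of the 230 were. The median log2 ratio of the 6 was -0.61, against -0.78 over the 230 genes. When each ratio was taken relative to the median of the listed genes, itself -0.78 in a list selected for this direction, the median of the 6 turned to 0.17. Of the 6 genes 5 then changed sign, Ddit4 (0.40), Plat (0.32), Irs2 (0.24), Sgk1 (0.10) and Per1 (0.03), and Errfi1 stayed below 0 (-0.82).

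The study set tau-/- PTZ against tau+/+ vehicle as well, a comparison that holds both the genotype and PTZ. All 6 genes were higher in tau-/- PTZ, as were 121 of the 175. Sgk1 (1.91-fold), Per1 (1.71-fold), Errfi1 (1.69-fold) and Irs2 (1.57-fold) were past 1.5-fold, 4 of the 6 genes, where 14.8% of the 230 were. The share was 18.6% among genes with a mean of at least 5 FPKM, and 34 of the 175 were past this threshold. Centred on the listed genes outside choroid plexus and meninges, Irs2 came to a log2 ratio of 0.56, within the threshold, and the count among the 6 genes to 3. Ddit4 was at 1.35-fold and Plat at 1.15-fold. The median log2 ratio was 0.70 over the 6 genes and 0.03 over the 230. For Sgk1, Per1, Ddit4, Errfi1 and Plat these ratios were no larger than those of tau-/- vehicle over tau+/+ vehicle. At a threshold of 2-fold, 0 of the 6 were past it, where 18 of the 230 were (7.83%).

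The place of the tau-/- libraries between those of tau+/+ was put as a percentage of the way in FPKM from tau+/+ vehicle (0%) to tau+/+ PTZ (100%). The divisor of this percentage is the tau+/+ change by which the study chose the genes, so a small change there can raise the percentage. The tau+/+ vehicle library also enters the value that is divided. For these reasons the medians below are not read as a trait of the 6 genes. The tau-/- vehicle library stood at 74.0% of the way for Ddit4 and 69.8% for Sgk1. It stood at 43.4% for Plat, 38.1% for Per1, 25.7% for Irs2 and 19.4% for Errfi1. The median was 40.7% over the 6 genes and 11.3% over the 175 genes higher after PTZ in tau+/+. With PTZ, tau-/- stood at 46.3% for Ddit4, 44.2% for Sgk1, 44.1% for Irs2, 37.6% for Per1, 25.4% for Plat and 16.7% for Errfi1. The median was 40.9%, against 8.86% over the 175 genes. The 6 genes ranged more widely in tau-/- vehicle (19.4% to 74.0%) than in tau-/- PTZ (16.7% to 46.3%), with Errfi1 nearest to tau+/+ vehicle in both.

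The order of conditions was shared. In all 6 genes tau+/+ vehicle was lowest and tau+/+ PTZ highest, as in 99 of the 175 genes higher after PTZ in tau+/+ (56.6%), an order that the selection favours. In Sgk1, Per1, Ddit4, Errfi1 and Plat the tau-/- PTZ library was second lowest and tau-/- vehicle second highest, as in 50 of the 175 genes (28.6%). Irs2 had both tau-/- libraries the other way round, as 49 of the 175 had (28.0%).

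Likeness to other listed genes was measured as the Euclidean distance between 3 log2 ratios, those of tau+/+ PTZ, tau-/- vehicle and tau-/- PTZ to tau+/+ vehicle, over the 4 libraries. Of 96 other genes with a mean of at least 5 FPKM, the nearest to the median of the 6 was Nr4a3 (distance 0.335), an activity-induced nuclear receptor, at 14.5 FPKM (vehicle) and 46.3 FPKM (PTZ) in tau+/+ and 23.9 FPKM (vehicle) and 25.7 FPKM (PTZ) in tau-/-. It was followed by Rbm3, an RNA-binding protein induced by cold (0.387), Nfil3, a basic leucine zipper repressor (0.479), Rasl11a, a small GTPase (0.495), and 5430416N02Rik (0.497). Per1 was nearest to Nr4a3 (0.164), and Sgk1 to Per1 (0.537) and then to Nr4a3 (0.579). Ddit4 was nearest to Rasl11b (0.133) and to Bhlhe40 (0.146). Errfi1 was nearest to the transcription factor Egr1 (0.342), Irs2 to Rbm3 (0.111) and Plat to Clk4, a kinase of splicing factors (0.0566). Among the 6 genes themselves the closest pair was Ddit4 and Plat (0.416) and the farthest Errfi1 and Plat (1.86).

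**Figure D4:**
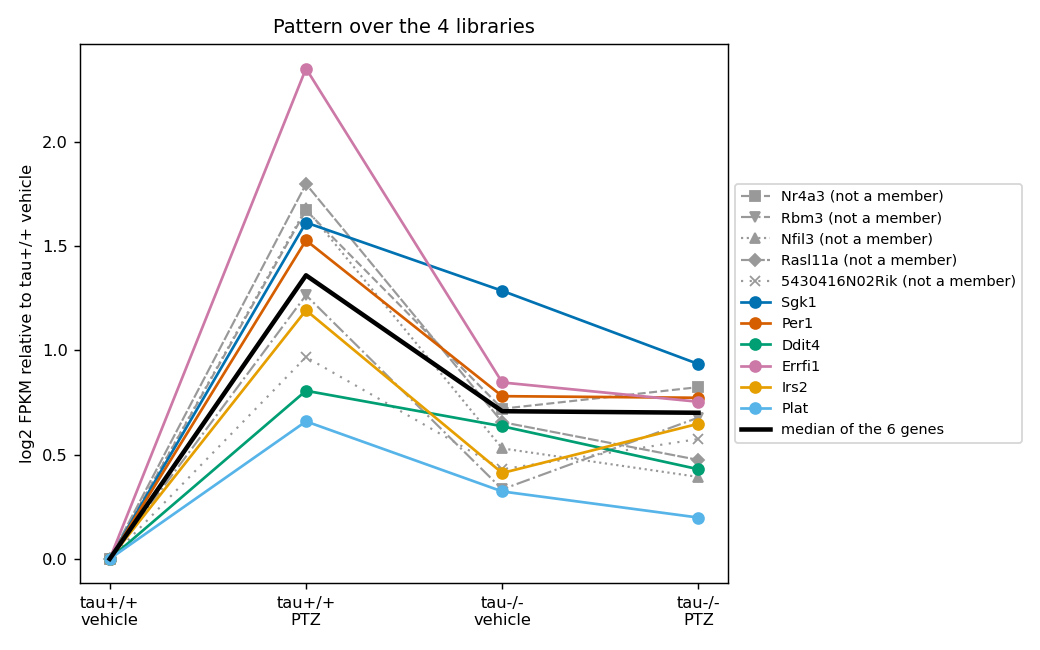
Log2 FPKM relative to tau+/+ vehicle in the 4 libraries for the 6 genes (colours), their median (black) and the 5 other listed genes nearest to that median (grey), with lines joining the values of 1 gene. The median stands at 1.36 in tau+/+ PTZ, 0.71 in tau-/- vehicle and 0.70 in tau-/- PTZ.

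Of 28 other genes known to respond to glucocorticoids, 8 were among the 230: Dusp1, Cdkn1a, Cebpb, Tiparp, Zfp36, Bhlhe40, Gadd45b and Gadd45g. All 8 were past 1.5-fold higher after PTZ in tau+/+, where 76.1% of the 230 were. The study's choice fixed a change past 1.5-fold there, in either direction. In tau-/- vehicle over tau+/+ vehicle, Cebpb, Bhlhe40 and Gadd45b were past 1.5-fold higher, 3 of the 8 where 13.9% of the 230 were, and the median log2 ratio was 0.53, against 0.23 over the 175 genes higher after PTZ in tau+/+. Bhlhe40, a clock repressor, was at 29.7 FPKM (vehicle) and 47.0 FPKM (PTZ) in tau+/+ and 46.4 FPKM (vehicle) and 39.2 FPKM (PTZ) in tau-/-, so that tau-/- vehicle nearly equalled tau+/+ PTZ. Dusp1, a phosphatase that inactivates MAP kinases, was at 8.70 FPKM (vehicle) and 40.2 FPKM (PTZ) in tau+/+ and 8.66 FPKM (vehicle) and 18.7 FPKM (PTZ) in tau-/-. Unlike the 6 genes, Dusp1 was level between the vehicle libraries and past 1.5-fold higher after PTZ in tau-/- (log2 1.11). Zfp36, which speeds the decay of cytokine mRNAs, was also past 1.5-fold higher after PTZ in tau-/-, and Cebpb was past 1.5-fold lower (log2 -1.02).

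Beyond the 6 genes, genes of the pathways in which they act were few among the 230. Of 18 other circadian clock genes 4 were listed, and 2 of them, Bhlhe40 and Gm129 (Ciart, a clock repressor), were past 1.5-fold higher in the tau-/- than in the tau+/+ vehicle library, where 13.9% of the 230 were. Of 22 other feedback regulators of receptor tyrosine kinase signalling, the group to which Errfi1 belongs, 5 were listed. Dusp5, a phosphatase of ERK, was past 1.5-fold higher between the vehicle libraries (log2 1.52), as was Cish, and Spry2 was past 1.5-fold lower (log2 -0.73). Of 34 other genes of insulin, PI3K and mTOR signalling 2 were listed, Trib1 and Pim3, and 0 of them were past the threshold between the vehicle libraries. Of 12 genes of the plasminogen system other than Plat, A2m alone was listed, with 0.676 FPKM in tau-/- PTZ as its lowest value. Of 12 genes of the integrated stress response, Atf3 and Ppp1r15a were listed, and 0 of these 2 were past the threshold between the vehicle libraries. The 15 activity-induced transcription factors had a median log2 ratio of 3.05 for PTZ over vehicle in tau+/+ and of 0.47 between the vehicle libraries, where 5 of the 15 were past 1.5-fold higher (13.9% of the 230). On the scale of percent of the way their tau-/- vehicle level had a median of 6.13%. The same median was 18.9% for the 8 other glucocorticoid-responsive genes, 35.7% for the 4 clock genes, 43.2% for the 5 feedback regulators and 40.7% for the 6 genes. The tau+/+ response, the divisor of this percentage, had a median log2 ratio of 3.05 for the 15 factors and 1.36 for the 6 genes. The percentages therefore do not rank the groups by vehicle level. Between the vehicle libraries the median log2 ratios of the 15 factors and the 6 genes were 0.47 and 0.71. The clock median of 35.7% includes Rorb, which was lower after PTZ in tau+/+ (log2 -0.59), so its 51.4% stands for a lower tau-/- vehicle level. The clock genes that were higher after PTZ stood at 96.3% (Bhlhe40), 20.1% (Nfil3) and 13.5% (Gm129).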

How the data were processed

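Brain RNA of tau+/+ and tau-/- mice given vehicle or PTZ was sequenced as read pairs, 1 library per condition. The authors aligned the reads to mm10 and computed the deposited FPKM with Cuffdiff; the submitters' processing notes name CASAVA 1.7, TopHat2 2.03, Bowtie2 2.0.0.6 and Cuffdiff 2.01. The annotation and the strand setting are not given in the sources used here. Cuffdiff divides fragments among isoforms, so FPKM give no read counts. In all, 4 deposited columns were not used: they hold the authors' log2 fold changes and p-values for tau+/+ PTZ and tau-/- PTZ, each against tau+/+ vehicle.

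Ratios were taken from FPKM without a pseudocount and counted past 1.5-fold. Each comparison of the 6 genes was set beside all 230 listed genes. With 1 library per condition no test was possible. The text names the 6 genes, the 5 listed genes nearest to their median pattern and up to 2 nearest to each gene among genes with a mean of at least 5 FPKM, and listed members of the gene lists. The members and lists were chosen with earlier results of these data known. The alternatives were pseudocounts of 0.1 and 1 FPKM, a threshold of 2-fold, ratios centred on the listed genes with and without choroid plexus and meninges genes, backgrounds without low or choroid plexus and meninges genes, and another distance. Gene positions are from GENCODE on GRCm38 and promoters from RefSeq on GRCm38.p6, which matched 5 of the 6 genes. Functions were tested on simulated data (7 of 7 checks passed) under Python 3.11.15, numpy 2.4.6, pandas 2.3.3 and matplotlib 3.10.9.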

Additional observations from a re-analysis of the deposited data

Results flagged for a closer look

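For 5 of the 6 genes PTZ over vehicle pointed in opposite directions in the 2 genotypes, higher in tau+/+ and lower in tau-/-, and with 1 library per condition these differences were not tested. The log2 ratio in tau-/- was -0.35 for Sgk1, -0.21 for Ddit4, -0.13 for Plat, -0.093 for Errfi1 and -0.0076 for Per1. Among the 175 listed genes higher after PTZ in tau+/+, 97 were likewise lower after PTZ in tau-/-. All 5 lay within 1.5-fold of tau-/- vehicle. With ratios centred on the listed genes the directions remained opposite for Sgk1 and Ddit4, while in tau-/- Per1 turned to 0.087 and Errfi1 to 0.0021, and in tau+/+ Plat turned to -0.14. With choroid plexus and meninges genes left out of the centre, Per1 was at 0.041 in tau-/-, and in tau+/+ Plat was at -0.15 and Ddit4 at -0.0021.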

How the results depend on the processing

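Of 183 recomputed values, 16 log2 values took the opposite sign, all 16 with a centred ratio. Pseudocounts of 0.1 and 1 FPKM moved no log2 value by over 0.1 and no count. At a threshold of 2-fold, 4 of the 6 genes were past it in the tau+/+ response. In tau-/- vehicle over tau+/+ vehicle 1 gene was past it, in tau-/- PTZ below tau+/+ PTZ 1, and in tau-/- PTZ over tau+/+ vehicle 0. Centring on the median of all listed genes, or on those outside choroid plexus and meninges, subtracts 0.80 or 0.81 log2 from the tau+/+ response, for which the list was selected. Its median over the 6 genes became 0.56 or 0.55 and its count 3 in both, Plat turned to -0.14 or -0.15 and, in the second, Ddit4 to -0.0021. For tau-/- PTZ over tau+/+ PTZ the median turned to 0.17 or 0.067, the count of genes lower became 1 in both, and Ddit4 turned to 0.40 or 0.30, Plat to 0.32 or 0.22 and Irs2 to 0.24 or 0.13. In the first, Sgk1 turned to 0.10 and Per1 to 0.025, and in the second Sgk1 came to 0 as the median gene itself. For tau-/- PTZ over tau-/- vehicle Per1 turned to 0.087 or 0.041 and, in the first, Errfi1 to 0.0021. For tau-/- vehicle over tau+/+ vehicle the median became 0.60 or 0.57, with all 6 genes still above 0 and 3 in place of 4 past 1.5-fold. For tau-/- PTZ over tau+/+ vehicle the count became 3 in the second, where Irs2 came to 0.56. Among genes with a mean of at least 5 FPKM, the share of listed genes past 1.5-fold moved from 76.1% to 98.0% for the tau+/+ response, from 60.4% to 77.5% for tau-/- PTZ below tau+/+ PTZ and from 16.5% to 9.8% for a lower tau-/- response, which was 9.18% without choroid plexus and meninges genes. Totals of single libraries cannot be read from FPKM, so no counting error was computed, and no replicate check was possible. No paired analysis was possible because each condition has 1 library.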
